A study of Homo sapiens with 60 samples.

Results

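The glucose-producing pathway of the liver was followed through 8 genes of a HepG2 RNA sequencing study, out of 60675 genes in its count table. They were chosen with earlier results of these data known, and each symbol was matched to 1 Ensembl identifier. The genes are G6PC1 (listed as G6PC in older annotations), SLC37A4, G6PC3, PCK1, PCK2, FBP1, PPARGC1A and DEPP1. HepG2 is a line grown from a human liver tumour and is widely used as a stand-in for hepatocytes. Cells were treated for 24 h in 20 groups of 3 libraries each, 60 libraries in all. The treatments were wortmannin at 10 µM, an inhibitor of phosphoinositide 3-kinase named in the series as the positive control, and water extracts of 6 medicinal materials at 20, 100 and 500 µg/mL. The extracts came from the fungus Poria Cocos (Poria below) and from Atractylodis Rhizoma (Atractylodes), from Glycyrrhizae Radix (licorice root) and from Panax Ginseng, and from Paeoniae Radix (peony) and Angelicae Gigantis Radix (angelica). The vehicle group received DMSO, at 0.1% in the sample labels and at 2% in the series' own design text. All groups are of 1 line with no genetic change named in the labels.

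Gluconeogenesis builds glucose from lactate, amino acids and glycerol by running glycolysis backwards, with separate enzymes at the steps that glycolysis cannot reverse. Phosphoenolpyruvate carboxykinase makes phosphoenolpyruvate from oxaloacetate, fructose-bisphosphatase removes a phosphate in the middle of the path, and glucose-6-phosphatase in the endoplasmic reticulum frees the glucose. In liver, insulin holds these genes down through phosphoinositide 3-kinase and AKT, which keep FOXO transcription factors out of the nucleus, and fasting hormones raise them together with the coactivator PGC-1alpha. DEPP1, first described as a decidual protein induced by progesterone, is also a FOXO-induced gene.

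The promoters of G6PC1, DEPP1 and G6PC3 are shown because the first 2 genes rose most with wortmannin and the paralog G6PC3 did not pass there. Each line is the 250 bases before a RefSeq start site (GRCh38.p14), read 5′ to 3′ on the gene's own strand. Capitals mark GTAAACA, a FOXO consensus, and TGTTT, a short core of forkhead sites, on either strand. The windows are chr17:42900549-42900798 (plus strand) for G6PC1, chr10:44978810-44979059 (minus strand) for DEPP1 and chr17:44070485-44070734 (plus strand) for G6PC3, whose start site is 1 of 3 in RefSeq.
G6PC1: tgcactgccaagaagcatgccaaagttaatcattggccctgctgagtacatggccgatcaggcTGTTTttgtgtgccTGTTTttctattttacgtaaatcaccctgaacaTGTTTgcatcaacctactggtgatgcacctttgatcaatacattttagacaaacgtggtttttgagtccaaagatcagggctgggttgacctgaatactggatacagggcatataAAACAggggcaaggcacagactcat
DEPP1: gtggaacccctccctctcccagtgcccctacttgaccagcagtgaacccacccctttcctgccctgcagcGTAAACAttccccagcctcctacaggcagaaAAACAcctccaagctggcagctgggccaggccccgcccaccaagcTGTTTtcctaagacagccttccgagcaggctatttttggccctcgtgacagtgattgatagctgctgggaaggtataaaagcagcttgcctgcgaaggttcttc
G6PC3: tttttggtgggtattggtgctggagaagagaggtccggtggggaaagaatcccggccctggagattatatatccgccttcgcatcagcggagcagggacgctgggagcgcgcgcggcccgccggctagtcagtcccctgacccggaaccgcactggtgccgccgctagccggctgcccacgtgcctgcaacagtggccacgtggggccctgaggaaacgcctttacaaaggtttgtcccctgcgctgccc
The DEPP1 window held 1 copy of GTAAACA, 180 bases upstream of the start site, and it was the only one of 11 windows of the 7 genes with an entry to do so. Of all 35116 promoter windows of this length, 2.98% held it. TGTTT was found 4 times in G6PC1, 3 times in DEPP1 (the copy 178 bases upstream overlaps GTAAACA) and not in the G6PC3 window shown. It is common: 40.4% of all windows held it, and 1.77% held it 4 or more times. The other 2 windows of G6PC3 held 2 copies and 1 copy, and a window of PPARGC1A held 5. CAAAACA, 1 form of the insulin response sequence, and TGACGTCA, the full form of the cyclic AMP response element, had no exact copy in the windows of these genes. They were in 4.3% and 1.65% of all windows. The shorter core TGACG was in 1 window, of PPARGC1A, against 21.2% of all. These are exact letter matches on both strands and not measured binding. Variant forms of a site were not counted, and PCK1 had no window, so a missing match does not show that an element is absent.

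The libraries held 20.9 to 33.4 M counts (median 26.1 M), and levels are given as CPM, the count scaled to the library total. Differences are log2 changes with their standard error from edgeR's quasi-likelihood test in 1 fit of all 60 libraries, and adjusted p-values are Benjamini-Hochberg values over the 16093 genes tested, with 0.05 as the threshold. That fit rescales the libraries by TMM factors of 0.926 to 1.03, which CPM does not use. A log2 change can thus differ from the ratio of the CPM values beside it. For G6PC1 with Poria at 500 µg/mL, that ratio to vehicle was 0.592, and the fit gave a fold of 0.639. The labels do not say whether replicate libraries stem from separate cultures, so p-values here reflect only how far such libraries scatter, which may be technical. All 8 hepatocyte markers checked, from ALB to AFP, were at 133 CPM or more in every library. Of the blood and fibroblast markers PTPRC was at 0 in 60 libraries and COL1A2 in 56, while CD68 (39.3 to 78.1 CPM) and ACTA2 (32.4 to 77.4 CPM) were present throughout, and their part in the results was not tested. In bulk RNA, fewer cells of a kind and less RNA per cell cannot be told apart.

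In GRCh38 the genes lie at chr17:42900797-42913369 (G6PC1), chr11:119024114-119030906 (SLC37A4), chr17:44070735-44076344 (G6PC3), chr20:57561080-57568112 (PCK1), chr14:24094053-24110598 (PCK2), chr9:94603133-94640249 (FBP1), chr4:23755041-23904089 (PPARGC1A) and chr10:44970981-44978810 (DEPP1). Lengths here join the exons of all annotated transcripts of a gene, from 1739 bases for FBP1 to 10870 for PPARGC1A. With the length of a single transcript, values per kilobase and close ranks could differ. Per kilobase of exon, and averaged over all libraries, PCK2 was the most abundant at 46.1 CPM per kb. It was followed by G6PC3 at 13.1, DEPP1 at 8.67, SLC37A4 at 7.77 and G6PC1 at 7.66 CPM per kb. PPARGC1A stood at 2.39 and PCK1 at 1.87 CPM per kb, so the mitochondrial carboxykinase far outweighed the cytosolic one. FBP1 was hardly present, at 0.214 CPM per kb and 3 to 17 counts per library, and its values carry wide counting error. All of these averages include the wortmannin libraries, where G6PC1 stood at 65.2 and DEPP1 at 55.2 CPM per kb. With vehicle the order differed, with SLC37A4 at 8.16, G6PC1 at 5.63 and DEPP1 at 4.29 CPM per kb. Exons of SLC37A4 overlap TRAPPC4 by 544 bases on the opposite strand, those of DEPP1 overlap RASSF4 by 695 bases and those of FBP1 overlap the antisense gene PCAT7 by 283 bases. The library kit keeps strand, but whether the counting used it is not given in the sources used here.

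Wortmannin, as the positive control, was compared with vehicle to see how the genes stand after 24 h with this inhibitor of phosphoinositide 3-kinase. RNA levels do not measure the activity of the kinase itself. All titles name the same batch, but the library descriptions of wortmannin and vehicle begin with different numbers, so that a difference in this number cannot be told apart from the treatment. Of the 8, 6 passed, where 46.3% of all tested genes did, and all 6 rose, where 22.4% of all genes were higher and 24% lower. The median log2 change was 0.78 over the 8 genes and 0.01 over all tested genes. Because the 8 genes were chosen with earlier results of these data known, these counts and medians are a description. G6PC1 and DEPP1 rose far more than the other 4, while G6PC3 and FBP1 did not pass.

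The glucose-6-phosphatase system was uneven. G6PC1, the liver catalytic subunit that releases free glucose, stood at 211, 217 and 217 CPM in the wortmannin libraries, against 17.1, 17.5 and 21.0 CPM in the vehicle libraries. The lowest wortmannin library was far above the highest vehicle library. The log2 change was 3.55 ± 0.084 (edgeR adjusted p = 1.31e-35), and per kilobase G6PC1 reached 65.2 CPM per kb with wortmannin, against 5.63 CPM per kb with vehicle. SLC37A4, the transporter that carries glucose-6-phosphate into the endoplasmic reticulum, was at 57.9, 54.1 and 56.9 CPM with wortmannin and at 50.2, 50.6 and 50.7 CPM with vehicle. Those groups did not overlap, and SLC37A4 rose by a log2 of 0.17 ± 0.052 (edgeR adjusted p = 0.00463). TRAPPC4, which shares exon bases with it, changed by 0.10 ± 0.072 (edgeR adjusted p = 0.291). G6PC3, the catalytic subunit found in most tissues, was at 69.8, 64.8 and 63.1 CPM with wortmannin and at 64.6, 61.6 and 58.2 CPM with vehicle, and these ranges overlap. Its log2 difference of 0.12 (95% interval 0.01 to 0.23) did not pass the adjustment in edgeR (adjusted p = 0.0862).

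Both carboxykinases rose. PCK1, the cytosolic enzyme and the classic hormone-regulated one, was at 16.8, 14.9 and 17.4 CPM with wortmannin, against 9.02, 8.50 and 9.04 CPM with vehicle. PCK2, its mitochondrial counterpart, was at 306, 295 and 297 CPM with wortmannin, against 191, 198 and 184 CPM with vehicle. Neither gene had overlapping groups. The log2 changes were 0.90 ± 0.102 for PCK1 and 0.66 ± 0.044 for PCK2 (edgeR adjusted p = 1.9e-10 and 5.82e-18). Because PCK2 started from the higher level, its gain was also the larger in CPM per kb, 71.5 with wortmannin against 45.7 with vehicle, while PCK1 was at 2.40 with wortmannin and 1.3 with vehicle.

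FBP1, the fructose-bisphosphatase of liver, was at 0.523, 0.582 and 0.540 CPM with wortmannin and at 0.431, 0.564 and 0.464 CPM with vehicle. At a mean of 14.7 counts per library with wortmannin and 14.3 with vehicle, its log2 difference of 0.20 ± 0.258 was not detectable at this depth (edgeR adjusted p = 0.631). PPARGC1A, which encodes PGC-1alpha, was at 50.2, 47.7 and 53.6 CPM with wortmannin, against 22.6, 20.2 and 21.8 CPM with vehicle. It rose by a log2 of 1.24 ± 0.085 (edgeR adjusted p = 1.08e-17) with no overlap. DEPP1 was at 165, 153 and 175 CPM with wortmannin, against 11.5, 12.3 and 14.5 CPM with vehicle, a log2 change of 3.70 ± 0.095 (edgeR adjusted p = 3.37e-34). RASSF4, which shares exon bases with DEPP1, was at 91.8 CPM with wortmannin and 95.3 CPM with vehicle (log2 -0.04, edgeR adjusted p = 0.475). All 6 calls were kept when any 1 library was left out and under every other alternative run.

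**Figure D1:**
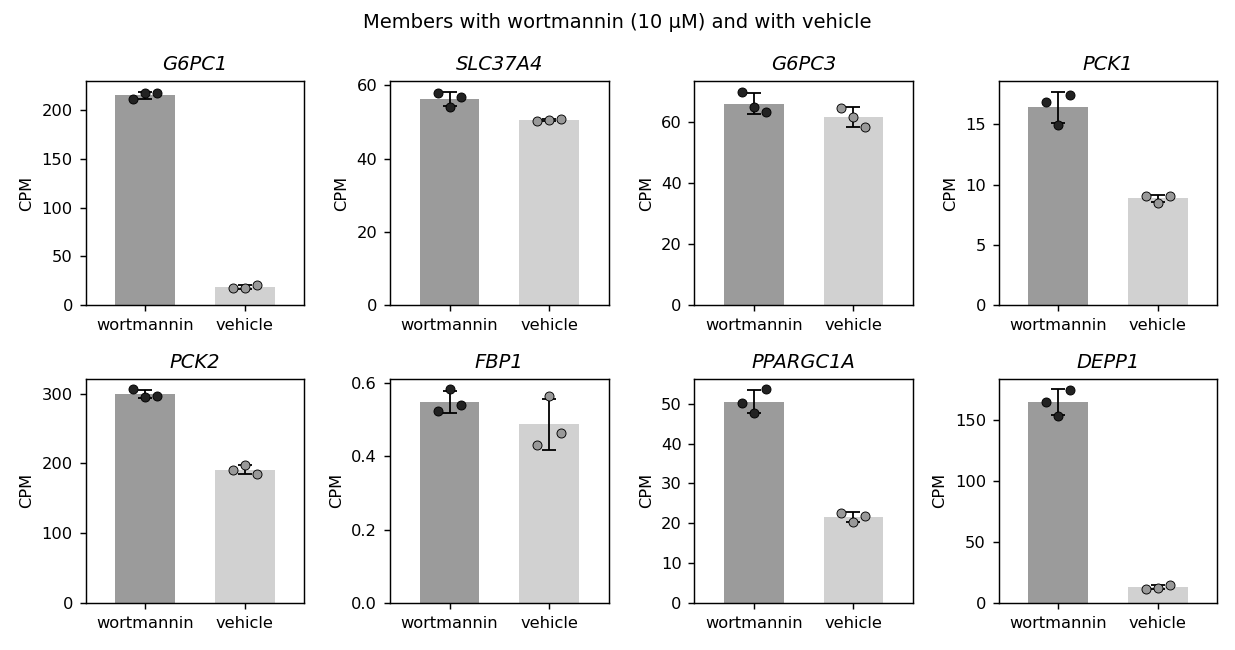
Level of each of the 8 genes in CPM (y axis, from 0, scaled per panel) in the wortmannin libraries (left bars) and the vehicle libraries (right bars). Bars are means, points are the 3 libraries of a group and error bars are 1 SD. G6PC1 and DEPP1 stand at 215 and 164 CPM with wortmannin, against 18.5 and 12.8 CPM with vehicle, while the points of G6PC3 and FBP1 overlap.

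The counts of genes around the pathway with wortmannin stand beside 22.4% of all tested genes higher and 24% lower. Of 24 measured enzymes and carriers that gluconeogenesis shares with glycolysis or that bring in substrate, 9 rose and 11 fell, with a median log2 change of -0.08, against 0.01 over all tested genes. SLC2A2, a glucose transporter of hepatocytes, rose by a log2 of 1.17, the alanine aminotransferase GPT2 by 0.68 and pyruvate carboxylase (PC) by 0.59, while the dicarboxylate carrier SLC25A10 changed by -0.65. Of 12 measured genes of the glycolysis steps that run against gluconeogenesis, 5 rose and 2 fell. The list also holds GCKR, which is no enzyme but the inhibitor of glucokinase and had the largest change named, at 0.83, and the pyruvate kinase PKM was at -0.45. Of 28 measured regulators of the pathway, 13 rose and 6 fell. The list was not split into activators and repressors, so these counts give no direction for the pathway. The nuclear receptor NR0B2 (1.4), the liver factor CREB3L3 (1.20) and KLF15 (0.81), known for amino acid use in fasting, had the largest log2 changes. Of 13 measured FOXO-induced genes outside the 8, 10 rose and 1 fell, led by IGFBP1 (3.21), KLHL24 (1.38) and PIK3IP1 (1.07), with a median of 0.61. These lists were drawn up with results of these data known and their counts are a description.

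The extracts were compared with the same vehicle group, so those comparisons share its 3 libraries. The first number of the library descriptions is shared by Poria and Atractylodes, by licorice and ginseng, and by angelica and peony, and no vehicle library carries any of those numbers. A difference from vehicle thus cannot be told apart from a difference between such sets or in DMSO, whereas differences between doses of an extract, or between the extracts of a set, involve no vehicle library. At 500 µg/mL, 7 of the 8 genes passed with Poria (47.6% of all tested genes), 4 with licorice (32.4%), 4 with peony (19.7%), 2 with angelica (18.9%), 2 with ginseng (10.2%) and 2 with Atractylodes (0.889%). At 100 µg/mL the counts were 8 with Poria (30.5%), 3 with angelica (14.6%), 3 with peony (10%), 2 with ginseng (8.53%), 2 with Atractylodes (1.35%) and 1 with licorice (16.4%). At 20 µg/mL they were 3 with licorice (11.2%) and 2 each with angelica (24.3%), peony (15.8%), ginseng (13.9%), Poria (3.8%) and Atractylodes (1.08%). With Atractylodes few genes of the whole table passed, and G6PC1, PCK1 and DEPP1 were among them. All these counts are a description, since the 8 genes were chosen with earlier results of these data known.

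**Figure D2:**
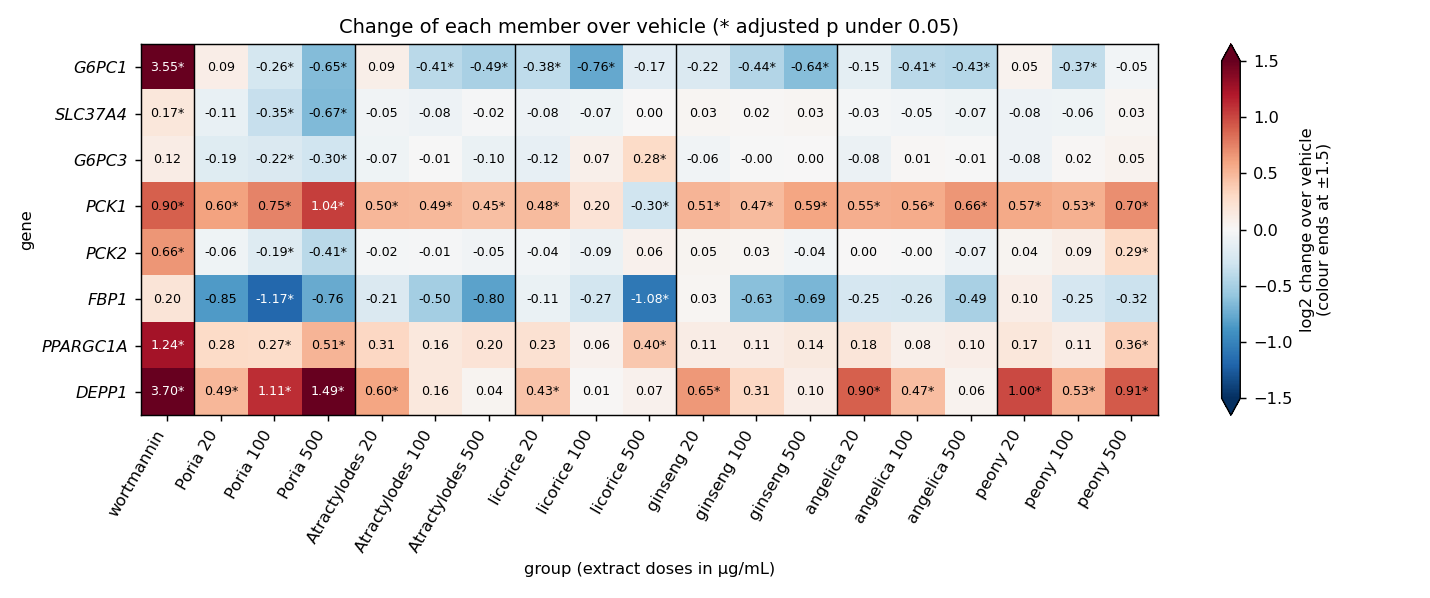
Log2 change over vehicle (colour and printed value) of each gene (rows) in wortmannin and in each extract at 20, 100 and 500 µg/mL (columns, low to high within an extract), from 1 edgeR fit with an asterisk where the adjusted p is under 0.05. The PCK1 row is positive in 17 of 18 extract columns, the G6PC1 row carries no positive asterisk outside wortmannin, and the Poria 500 column holds 3 positive and 4 negative asterisks.

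G6PC1 rose with no extract and fell with 11 of the 18 extract groups, where 0.261% to 23.7% of all tested genes were lower. It was lower at 100 µg/mL of all 6 extracts, by log2 values from -0.76 with licorice to -0.26 with Poria. At 20 µg/mL it had fallen with licorice alone. Over the doses of Poria its libraries were at 21.7, 18.3 and 18.3 CPM with 20 µg/mL, 17.2, 13.7 and 13.4 CPM with 100 µg/mL and 12, 10.7 and 10.3 CPM with 500 µg/mL. The top and bottom doses did not overlap, and the log2 difference of 500 from 20 µg/mL was -0.74 ± 0.1 (edgeR adjusted p = 1.92e-08), in a set of doses where 6 of the 8 genes and 43.5% of all genes passed. With Atractylodes the values were 19.6, 19.6 and 19.7 CPM at 20 µg/mL, 15.1, 14.3 and 12.6 CPM at 100 µg/mL and 15.0, 11.6 and 13.3 CPM at 500 µg/mL. There only 0.0497% of all genes differed between 500 and 20 µg/mL, and G6PC1 and DEPP1 were 2 of them. The G6PC1 difference with Atractylodes was lost without replicate 2 at 500 µg/mL (edgeR adjusted p = 0.192). With ginseng (-0.42) and angelica (-0.28) the difference between 500 and 20 µg/mL pointed down and did not pass (edgeR adjusted p = 0.0648 and 0.19). Of the 11 falls against vehicle, 6 were lost without vehicle replicate 3, the highest of its group at 21.0 CPM: the edgeR adjusted p was then 0.288 for Poria 100, 0.0844 for Atractylodes 500, 0.207 for Atractylodes 100, 0.0968 for licorice 20, 0.0579 for angelica 100 and 0.119 for peony 100. Of these, Poria 100 was also lost without its own replicate 2 (0.184) or 3 (0.213), Atractylodes 500 without its replicate 2 (0.12) or 3 (0.0694), Atractylodes 100 without its replicate 2 (0.0682) or 3 (0.265) and peony 100 without its replicate 2 (0.0714). In a fit of only the libraries compared, Poria 100 (0.163), Atractylodes 100 (0.0948) and ginseng 100 (0.0503) did not pass.

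With licorice and peony G6PC1 was lowest at the middle dose. Licorice libraries were at 14.5, 14.0 and 14.2 CPM with 20 µg/mL, 11.5, 9.91 and 11.1 CPM with 100 µg/mL and 17.1, 16.2 and 16.6 CPM with 500 µg/mL, with no overlap between doses. In a contrast added after these values were seen, 100 µg/mL was 0.49 ± 0.09 log2 units below the mean of the other doses (log2 -0.49, edgeR adjusted p = 0.000861), where 1 of the 8 genes and 0.547% of all genes passed. Peony libraries were at 19, 18.5 and 20.0 CPM with 20 µg/mL, 15.7, 12.9 and 14.3 CPM with 100 µg/mL and 18.3, 19.5 and 16.7 CPM with 500 µg/mL. That dip of -0.37 did not pass in edgeR (adjusted p = 0.0688), and it passed without peony 100 replicate 1 (0.046) or peony 500 replicate 3 (0.0436). No other extract gave a G6PC1 value past the threshold in that contrast.

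**Figure D3:**
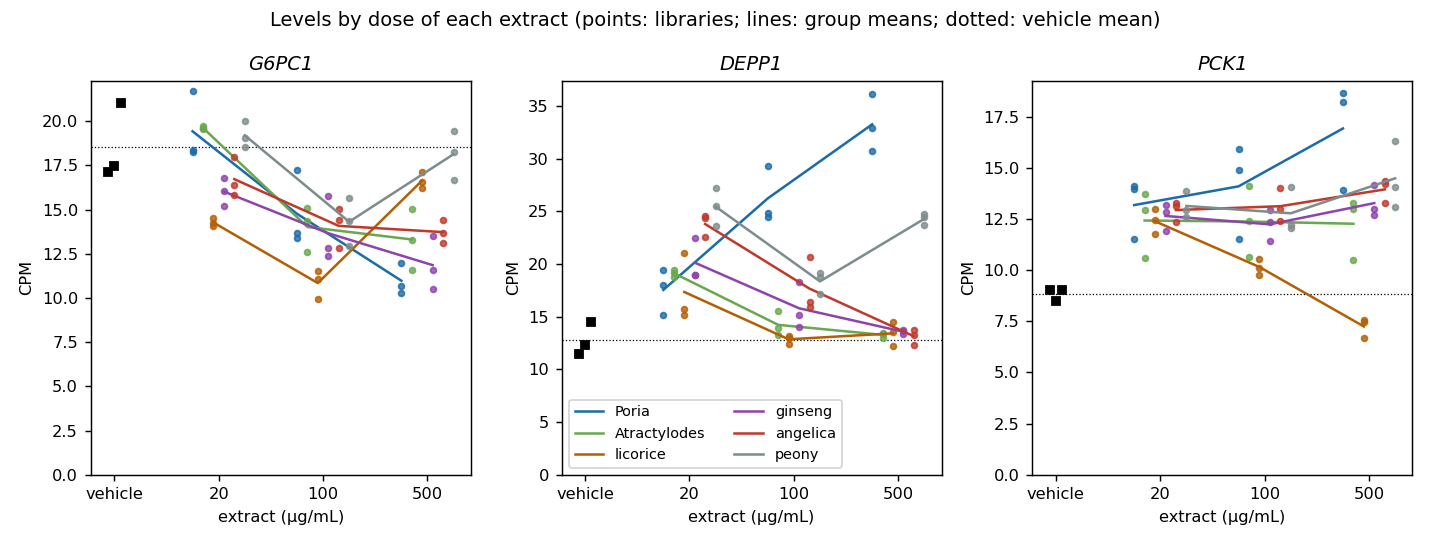
Levels of G6PC1, DEPP1 and PCK1 in CPM (y axes, from 0) by dose of each extract (x axis, vehicle at the low end, then 20, 100 and 500 µg/mL, evenly spaced). Points are libraries, lines join the means of an extract, black squares are vehicle libraries and the dotted line is their mean. G6PC1 with licorice dips to 10.8 CPM at 100 µg/mL, DEPP1 climbs with Poria to 33.3 CPM at 500 µg/mL, and PCK1 with licorice at 500 µg/mL lies below the vehicle libraries.

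Over the 18 extract groups 0.261% to 23.7% of all tested genes were lower, and SLC37A4 fell in 2 groups, both of Poria. Its libraries were at 46.4, 45.4 and 45.3 CPM with 20 µg/mL of Poria, 35.3, 40.4 and 37.3 CPM with 100 µg/mL and 28.1, 30.1 and 30.4 CPM with 500 µg/mL. The 3 doses did not overlap. The log2 difference of 500 from 20 µg/mL was -0.55 ± 0.056 (edgeR adjusted p = 7.67e-12), and against vehicle it was -0.67 ± 0.055 at 500 µg/mL (edgeR adjusted p = 1.08e-14). TRAPPC4 rose at 500 µg/mL of Poria against vehicle (log2 0.20, edgeR adjusted p = 0.0202). In the 15 groups of the other extracts SLC37A4 stayed within log2 values of -0.08 and 0.03 of vehicle, and none passed.

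G6PC3 fell with Poria at 100 and 500 µg/mL and rose with licorice at 500 µg/mL. With licorice it was at 55.2, 56.2 and 58.4 CPM at 20 µg/mL, 62.9, 66.2 and 64.3 CPM at 100 µg/mL and 72.5, 81.4 and 72.1 CPM at 500 µg/mL. The doses did not overlap, and the log2 difference of 500 from 20 µg/mL was 0.41 ± 0.057 (edgeR adjusted p = 1.78e-07). That comparison had 3 of the 8 genes and 21.3% of all genes past the threshold. With Poria at 500 µg/mL G6PC3 was at 46.2, 46.7 and 46.4 CPM, against 64.6, 61.6 and 58.2 CPM with vehicle (log2 -0.30 ± 0.058, edgeR adjusted p = 2.57e-05). At 500 µg/mL of Poria 47.6% of all tested genes passed against vehicle in either direction. All 3 genes of the glucose-6-phosphatase system were lower than in vehicle there, by -0.65 (G6PC1), -0.67 (SLC37A4) and -0.30 (G6PC3). G6PC3 stood at -0.19 with 20 µg/mL of Poria (edgeR adjusted p = 0.0503), and its difference between the doses of Poria did not pass.

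PCK1 rose with 16 of the 18 extract groups, where 0.559% to 23.9% of all tested genes were higher. In all 18 its libraries lay outside the vehicle range, 17 times above and with licorice at 500 µg/mL below. At 20 µg/mL the log2 changes of the 6 extracts lay between 0.48 (licorice) and 0.60 (Poria). Of the 20 group means the vehicle one ranked 19th, at 8.86 ± 0.31 CPM, and the next above it was licorice at 100 µg/mL with 10.2 ± 0.39 CPM. Of the 16 rises, the 3 with Atractylodes were the ones lost in some alternative: without vehicle replicate 2 the edgeR adjusted p was 0.143, 0.0766 and 0.085 at 500, 100 and 20 µg/mL. The 500 µg/mL call was also lost without vehicle replicate 1 (0.0527) or 3 (0.065), the one at 100 µg/mL in a fit of only the libraries compared (0.0549), and all 3 without replicate 2 (0.207, 0.0571 and 0.172) or replicate 3 (0.185, 0.212 and 0.086) of the extract group itself. Because the vehicle libraries enter all of these, the 16 calls are not 16 separate results, and set and DMSO cannot be told apart from the extracts here.

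Poria and licorice moved PCK1 with dose, in opposite directions. With Poria its libraries were at 11.5, 13.9 and 14.1 CPM at 20 µg/mL, 11.5, 15.9 and 14.9 CPM at 100 µg/mL and 13.9, 18.6 and 18.2 CPM at 500 µg/mL, a log2 difference of 0.43 ± 0.098 (edgeR adjusted p = 0.000278). The outer doses overlap, and replicate 1 was the lowest library at each dose. With licorice they were at 11.8, 12.4 and 13.0 CPM at 20 µg/mL, 10.1, 9.79 and 10.6 CPM at 100 µg/mL and 6.68, 7.49 and 7.58 CPM at 500 µg/mL, a log2 difference of -0.78 ± 0.111 (edgeR adjusted p = 2.73e-07). Here the 3 doses were fully apart. In the other 4 extracts the difference between doses lay between -0.05 and 0.13 and did not pass. The fall below vehicle at 500 µg/mL of licorice was small (log2 -0.30 ± 0.115, edgeR adjusted p = 0.0381) and was lost without vehicle replicate 1 (adjusted p = 0.0879) or 3 (0.11), or licorice 500 replicate 1 (0.148), 2 (0.0559) or 3 (0.0607).

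PCK2 fell with Poria and rose with peony. Poria libraries were at 179, 175 and 185 CPM with 20 µg/mL, 145, 162 and 172 CPM with 100 µg/mL and 129.7, 139 and 133 CPM with 500 µg/mL. The log2 difference of 500 from 20 µg/mL was -0.35 ± 0.045 (edgeR adjusted p = 8.46e-09). With peony PCK2 was at 189, 207 and 190.0 CPM at 20 µg/mL, 201, 207 and 199.7 CPM at 100 µg/mL and 230.0, 237 and 239.9 CPM at 500 µg/mL. The difference of 0.25 ± 0.045 (edgeR adjusted p = 0.000125) was the only 1 of the 8 genes to pass between the doses of peony, where 3.49% of all genes did. With Poria, then, the 2 carboxykinases parted: PCK1 rose with dose and PCK2 fell.

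FBP1 stayed below 1 CPM in every group, from 0.198 CPM with Poria at 100 µg/mL to 0.549 CPM with wortmannin. It fell against vehicle with Poria at 100 µg/mL (log2 -1.17 ± 0.32) and licorice at 500 µg/mL (-1.08 ± 0.302), at edgeR adjusted p of 0.0197 and 0.0188. Both calls were lost without vehicle replicate 2 (adjusted p = 0.0712 and 0.0736) and with no filter on low counts (0.0787 and 0.0919). The Poria one was also lost without Poria 100 replicate 1 (0.0843) or 3 (0.116), in a fit of only the libraries compared (0.0693) and in DESeq2 (0.0538), and the licorice one without licorice 500 replicate 1 (0.142). PPARGC1A rose in 4 of the 18 extract groups, where 0.559% to 23.9% of all tested genes were higher. It did so with Poria at 100 and 500, licorice at 500 and peony at 500 µg/mL. Its libraries were at 28.7, 28.2 and 28.4 CPM with Poria at 500 µg/mL, 31.6, 25.5 and 28.7 CPM with licorice at 500 µg/mL and 27.6, 27.8 and 28.1 CPM with peony at 500 µg/mL, all above the vehicle libraries of 22.6, 20.2 and 21.8 CPM. The log2 changes were 0.51, 0.40 and 0.36. The PPARGC1A vehicle mean was the lowest of its 20 group means, at 21.5 ± 1.2 CPM, and all 18 extract groups lay above it. The 4 calls rest on these same vehicle libraries and are not separate results. The call for Poria at 100 µg/mL (0.27, edgeR adjusted p = 0.0175) was lost without vehicle replicate 2 (0.0935) or Poria 100 replicate 3 (0.0716). Its difference between the doses of Poria (0.23 ± 0.088, edgeR adjusted p = 0.0321) was lost without Poria 500 replicate 1 (0.0827), 2 (0.0525) or 3 (0.0765), without Poria 20 replicate 1 (0.303) and in a regression on log dose (0.0567).

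**Figure D4:**
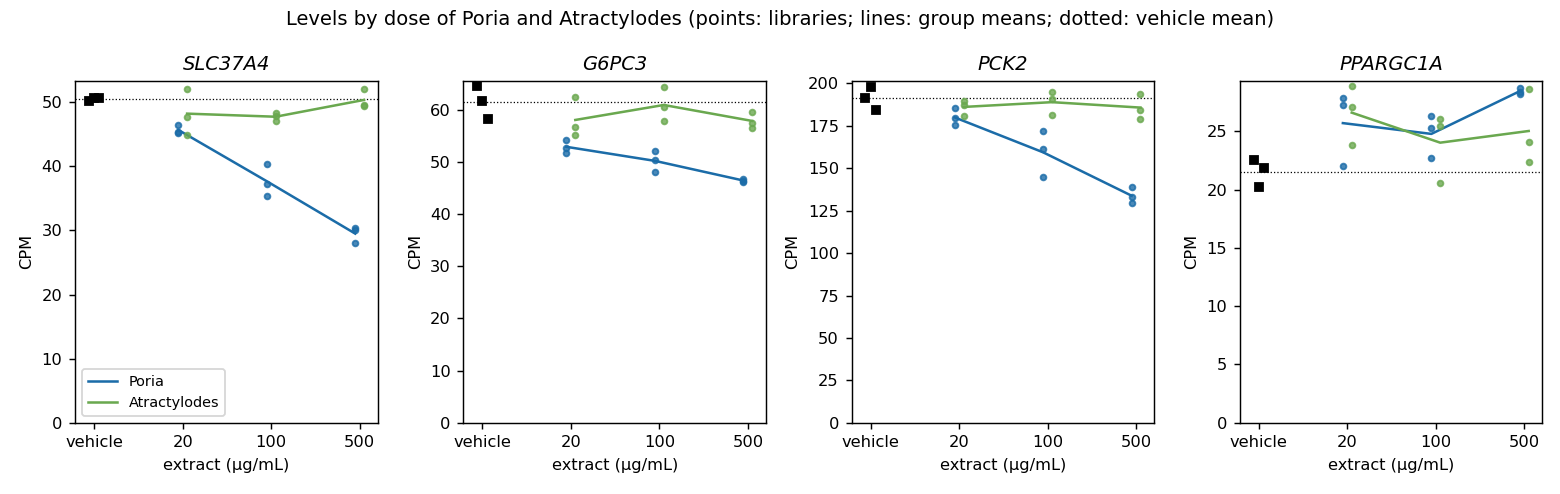
Levels of SLC37A4, G6PC3, PCK2 and PPARGC1A in CPM (y axes, from 0) by dose of Poria and of Atractylodes, the extract of the same set (x axis, vehicle at the low end, then 20, 100 and 500 µg/mL, evenly spaced). Points are libraries, lines join means, black squares are vehicle libraries and the dotted line is their mean. SLC37A4 with Poria steps down to 29.5 CPM at 500 µg/mL, whereas with Atractylodes it stays at 47.7 to 50.4 CPM.

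DEPP1 had its vehicle mean at the bottom of all 20 group means, at 12.8 ± 1.6 CPM, next to 12.9 ± 0.4 CPM with licorice at 100 µg/mL. It rose in 11 of 18 extract groups, where 0.559% to 23.9% of all tested genes were higher, and fell in none. At 20 µg/mL it rose with all 6 extracts, by log2 values from 0.43 (licorice) to 1.00 (peony), again over the same vehicle libraries, and the calls were lost for Poria without its replicate 2 (edgeR adjusted p = 0.0504) and for licorice without its replicate 2 (0.137). From there the extracts went apart. With Poria its libraries were at 18.0, 19.4 and 15.2 CPM at 20 µg/mL, 29.3, 24.5 and 24.9 CPM at 100 µg/mL and 36.2, 32.9 and 30.8 CPM at 500 µg/mL. No 2 doses overlapped, and the log2 difference of 500 from 20 µg/mL was 0.99 ± 0.096 (edgeR adjusted p = 2.29e-12). RASSF4 fell over the same doses, by 0.59 on the log2 scale (edgeR adjusted p = 4.95e-17).

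With angelica DEPP1 went down: 22.5, 24.5 and 24.4 CPM at 20 µg/mL, 16.4, 15.9 and 20.7 CPM at 100 µg/mL and 13.8, 13.3 and 12.4 CPM at 500 µg/mL. The doses did not overlap, and the log2 difference was -0.84 ± 0.103 (edgeR adjusted p = 1.59e-07), the only 1 of the 8 genes past the threshold where 1.22% of all genes passed. Ginseng gave 19, 22.5 and 19 CPM at 20 µg/mL, 14.0, 18.3 and 15.2 CPM at 100 µg/mL and 13.8, 13.6 and 13.3 CPM at 500 µg/mL, a difference of -0.56 ± 0.106 (edgeR adjusted p = 0.00608). That too was 1 of the 8 genes, where 0.149% of all genes passed, and it was lost without ginseng 20 replicate 2 (adjusted p = 0.159) or ginseng 500 replicate 3 (0.0568). Atractylodes and licorice gave smaller falls (-0.55 and -0.37, edgeR adjusted p = 0.015 and 0.00885). The Atractylodes one was lost without any 1 of its 6 libraries, at adjusted p values from 0.0612 to 0.201, and the licorice one without licorice 500 replicate 2 (0.067) or licorice 20 replicate 2 (0.188). At 500 µg/mL of these 4 extracts DEPP1 averaged 13.2 to 13.6 CPM, close to the 12.8 CPM of vehicle.

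Peony did neither. DEPP1 was at 23.6, 25.5 and 27.2 CPM with 20 µg/mL, 18.8, 17.2 and 19.1 CPM with 100 µg/mL and 24.4, 23.8 and 24.7 CPM with 500 µg/mL. All 100 µg/mL libraries were below those of the other doses, by a log2 of -0.43 ± 0.087 in the contrast added after seeing the values (edgeR adjusted p = 0.0184), which 1 of the 8 genes and 0.0559% of all genes passed. The call was lost without any 1 of peony 100 replicates 1, 2 and 3 (adjusted p = 0.0765, 0.639 and 0.0912) or peony 20 replicate 3 (0.0678).

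Extracts of the same set were set against each other at 500 µg/mL, which leaves the vehicle libraries out. Poria and Atractylodes differed in 6 of the 8 genes, where 42.9% of all genes differed. DEPP1 was at 33.3 ± 2.7 CPM with Poria and 13.3 ± 0.27 CPM with Atractylodes (SD, n = 3 each), a log2 difference of 1.45 ± 0.101, and PCK1 (0.58) and PPARGC1A (0.31) were also higher with Poria, the last not without Atractylodes 500 replicate 1 (edgeR adjusted p = 0.0526). SLC37A4 (-0.65), PCK2 (-0.35) and G6PC3 (-0.20) were lower with Poria. G6PC1 was not among them, at 11 CPM on average with Poria and 13.3 CPM with Atractylodes. The fit, which rescales the libraries, gave a log2 difference of -0.16 with a 95% interval of -0.37 to 0.05.

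Licorice and ginseng differed in 4 of the 8 genes, where 22.4% of all genes did. PCK1 was at 7.25 ± 0.49 CPM with licorice and 13.3 ± 0.76 CPM with ginseng (log2 -0.89 ± 0.111, edgeR adjusted p = 9.53e-09), while G6PC1 (0.47), G6PC3 (0.28) and PPARGC1A (0.26) were higher with licorice. The PPARGC1A call was lost without licorice 500 replicate 1 (adjusted p = 0.231), ginseng 500 replicate 2 (0.0808) or ginseng 500 replicate 3 (0.0908). G6PC1 and PCK1, which rose together with wortmannin, thus differed in opposite directions between these extracts. Angelica and peony differed in 3 of the 8 genes, where 6.17% of all genes did. DEPP1 averaged 13.2 ± 0.72 CPM with angelica and 24.3 ± 0.49 CPM with peony (log2 -0.86 ± 0.102, edgeR adjusted p = 5.03e-08), and PCK2 (-0.36) and G6PC1 (-0.38) were lower with angelica too. The G6PC1 call was lost without angelica 500 replicate 1 (adjusted p = 0.0777) or peony 500 replicate 2 (0.062).

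Whether the change with dose differed between the 6 extracts was tested jointly for each gene. It did for 6 of the 8 genes, where 35.1% of all genes passed. The edgeR adjusted p was 8.65e-15 for DEPP1, 2e-09 for PCK2, 2.34e-09 for SLC37A4, 1.88e-07 for PCK1, 1.16e-06 for G6PC1 and 2.1e-05 for G6PC3. PPARGC1A (0.0712) and FBP1 (0.669) did not pass.

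At 500 µg/mL of Poria, where 47.6% of all tested genes passed against vehicle, the same lists were counted. Of the 12 measured genes of the opposing glycolysis steps, GCKR included, 8 rose and 2 fell, with a median log2 change of 0.67, against -0.02 over all tested genes. PFKFB3 (2.81), which makes the activator of phosphofructokinase, the hexokinase HK2 (1.02), PFKFB4 (0.96) and GCKR (0.68), the glucokinase inhibitor, had the largest changes. Of the 24 shared enzymes and carriers 12 rose and 6 fell, with the glycerol kinase GK at 0.89 and the glucose transporter SLC2A2 at -0.68. Of the 28 regulators 7 rose and 8 fell, including the orphan receptor NR4A1 at 1.53 and the liver factor CEBPA at -1.20, a share near that of all genes. Of the 13 other FOXO-induced genes 5 rose and 3 fell, led by IGFBP1 at 3.17 and TRIB1 at 1.48. Over the doses of licorice, where 21.3% of all genes passed in either direction, 8 of those 13 fell and none rose, with a median log2 of -0.41 between 500 and 20 µg/mL, against 0.0003 over all tested genes, among them CCNG2 at -0.80 and CITED2 at -0.54.

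Correlations were taken across the 20 group means of log2 CPM, which share the scaling by library totals and do not use the edgeR fit. G6PC1 and DEPP1 had a Pearson r of 0.858, and of 0.168 over the 19 groups without wortmannin. PPARGC1A and DEPP1 had 0.885 and 0.470. SLC37A4 and PCK2 had 0.808 and 0.888, and that pair thus kept its likeness without wortmannin. Among 10576 genes with a symbol and at least 5 CPM, the nearest patterns were SMPDL3A for G6PC1 (r 0.980, and 0.736 without wortmannin), LGALS8 for DEPP1 (0.967 and 0.897), LPCAT1 for PCK1 (0.869 and 0.866), RETSAT for PCK2 (0.974 and 0.948) and AP1AR for PPARGC1A (0.949 and 0.753). The carnitine palmitoyltransferase CPT1A came next for PPARGC1A (0.947 and 0.736). These correlations are descriptions over group means, whose spread wortmannin dominates for G6PC1, DEPP1 and PPARGC1A.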

How the data were processed

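RNA of 60 HepG2 libraries was sequenced as paired-end reads of 100 bases from a directional kit, per the labels' protocols. The authors deposited a table of expected counts per Ensembl gene, and 76.1% of its values above 0 are whole. The submitters' processing notes name FastQC 0.11.9, Trim Galore 0.6.5, STAR 2.7.3a, RSEM 1.3.3 and the builds hg38 and GRCh38, and the annotation release and strand setting are not given in the sources used here. Columns were matched to samples by their descriptions, and 210 of 270 columns, which belong to no sample listed, were not used. Of 60675 genes, 57055 were given a symbol from a gene name table, and gene coordinates, exon lengths and overlaps come from GENCODE annotation of GRCh38.

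The expected counts were rounded to whole numbers, and CPM was computed from library totals. Genes were filtered with filterByExpr (minimum count 10, minimum total 15), leaving 16093. edgeR 4.0.16 in R 4.3.3 (TMM scaling, factors 0.926 to 1.03) was fitted with 1 mean per group, and 95% intervals are 1.96 standard errors. In each library 3 counts equal 0.0899 to 0.144 CPM. Such limits cover counting error only. The mitochondrial share of counts averaged 9.00% to 12.7% by group, and no 2 libraries were identical. The dose difference is 500 minus 20 µg/mL. The joint test asks whether the 6 dose differences are unequal. The fit was tested on simulated data. Promoter windows were read from a RefSeq table, which has no entry for PCK1.

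All 8 genes are described in each comparison, and of each gene list up to 4 genes past the threshold with the largest log2 change and at least 5 CPM in 1 group are named. Likeness was ranked by Pearson r over 20 group means for genes spanning at least 1 log2 unit. The 8 genes and the lists were chosen with earlier results of these data known. The contrast of 100 µg/mL with the mean of the other doses, and the motif TGTTT, were added after values had been seen. Alternatives were DESeq2 1.42.0 size factors and tests, a filter at 1 CPM, no filter, only the libraries compared, a replicate block, a regression on log dose, and leaving out each library in turn. Same-numbered libraries were not treated as pairs, since in no comparison did every pair correlate above 0.1, although PCK1 and SLC37A4 were each lowest in the library numbered 1 throughout 1 set of extracts.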

Additional observations from a re-analysis of the deposited data

Results flagged for a closer look

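The change with dose differed between the 6 extracts for 6 of the 8 genes, by the joint edgeR test. That test called 35.1% of all tested genes. DEPP1 had an adjusted p of 8.65e-15, with log2 differences between 500 and 20 µg/mL of 0.99 for Poria and -0.84 for angelica. PCK2 had 2e-09, with -0.35 for Poria and 0.25 for peony. SLC37A4 had 2.34e-09, with -0.55 for Poria and none of the other extracts past the threshold. PCK1 had 1.88e-07, with 0.43 for Poria and -0.78 for licorice. G6PC1 had 1.16e-06, with -0.74 for Poria and 0.22 for licorice, which did not pass. G6PC3 had 2.1e-05, with 0.41 for licorice and -0.11 for Poria, which did not pass. Extract and set share their libraries, so that a difference between extracts of different sets cannot be told apart from a difference between sets.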

How the results depend on the processing

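Of the 92 calls among 232 values (8 genes in 29 comparisons), 69 were kept without any 1 library and 68 under every alternative, and no value past the threshold in either setting changed sign. DESeq2 size factors changed none of the 232. With no filter on low counts and with the DESeq2 Wald test, 4 of the 8 genes passed with Poria at 20 µg/mL against vehicle (2 in edgeR) and 2 between the doses of ginseng (1 in edgeR), and with no filter 2 passed between the doses of angelica (1). In a fit of only the libraries compared, 0 passed with Atractylodes at 100 µg/mL (2 in the full fit) and 1 with ginseng at 100 µg/mL (2). The cause of these shifts was not tested. Leaving out 1 library at a time gave counts of 5 to 8 for Poria 100 against vehicle, 1 to 3 for Poria 20, 0 to 2 for Atractylodes 500, 0 to 2 for Atractylodes 100, 1 to 3 for Atractylodes 20 and 2 to 3 for licorice 500, and 0 to 2 for the dose differences of Atractylodes and of ginseng. In the full fit 30.5% of all tested genes passed against vehicle with Poria 100 and 3.8% with Poria 20. The shares were 0.889%, 1.35% and 1.08% for Atractylodes 500, 100 and 20, 32.4% for licorice 500 and 8.53% for ginseng 100. For the dose differences they were 0.0497% with Atractylodes, 0.149% with ginseng and 1.22% with angelica. The shares under each alternative are not given here, so a shift in the 8 genes cannot be told from one in all genes. In no comparison of 28 did every pair of same-numbered libraries deviate together (r from -0.198 to 0.139). A replicate block changed 1 of the 232 values: G6PC3 with Poria at 20 µg/mL against vehicle (log2 -0.19) passed. FBP1 was removed by the filter at 1 CPM and has no value there, and its 3 to 17 counts per library limit every statement on it.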

Other observations

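In the set of Poria and Atractylodes the library numbered 1 had the lowest PCK1 level in 6 of 6 groups, for example 13.9 CPM against 18.6 and 18.2 CPM with Poria at 500 µg/mL. It was also the lowest for PPARGC1A in 5 of those 6 groups. In the set of licorice and ginseng the library numbered 1 was the lowest for SLC37A4 in 6 of 6 groups and for PCK2 in 5 of 6. In the set of angelica and peony no gene of the 8 had 1 number lowest in more than 4 of the 6 groups. These counts were made after the values were seen.

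For FBP1 the nearest pattern over the 20 groups was that of the cholesterol synthesis gene DHCR7 (r 0.923, and 0.924 without wortmannin), at 3 to 17 counts of FBP1 per library. PCAT7, which overlaps FBP1 on the other strand, rose with wortmannin by a log2 of 0.61 ± 0.197 (edgeR adjusted p = 0.00935), at 1.69 CPM with wortmannin and 1.12 CPM with vehicle. RASSF4, which shares exon bases with DEPP1, fell with Poria at 500 µg/mL (log2 -0.64 ± 0.041, edgeR adjusted p = 1.71e-18), at 56.7 CPM with Poria and 95.3 CPM with vehicle, while DEPP1 rose.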
